A study of Mus musculus with 6 samples.

Results

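Microglia, the resident macrophages of the brain, owe their identity to a small set of transcription factors, and the levels of 9 genes of that kind were measured here in hippocampal microglia of mice heterozygous for Mll5. The 9 genes are the lineage factors Spi1, Irf8, Runx1 and Cebpa, the microglial and macrophage factors Sall1, Mef2a, Mef2c and Maf, and Bin1. They were taken by symbol from the table of 11881 listed genes, and all 9 were found and passed the filter on low counts. Bin1 encodes a membrane-shaping endocytic adaptor of the amphiphysin family and is not a transcription factor, so it is described apart. The mice were labelled Mll5+/- (heterozygous for Mll5, now called Kmt2e, a gene of the MLL family) or WT, with 3 mice each and 1 library per mouse. All were males of postnatal day 17 to 21, and cells were sorted from hippocampus as CD11b-positive and CD45-low. The labels give neither the strain nor the form of the Mll5 allele, and no batch.

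As background, PU.1 (the product of Spi1) sets up the enhancers of the myeloid lineage. IRF8 binds many of these sites together with PU.1. Mice without PU.1 lack microglia, and those without IRF8 have fewer and altered ones. SALL1 is a zinc finger factor that among macrophages is largely restricted to microglia, and its loss turns them towards an inflammatory macrophage state. MEF2 factors bind at microglial enhancers beside PU.1, and MEF2C restrains the inflammatory response of microglia.

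Of the 9 genes, 7 had log2 fold changes (Mll5+/- over WT) between -0.10 and 0.09, while Cebpa (0.94) and Mef2c (0.77) had larger ones with wide errors. In edgeR's test 0 of the 9 had an adjusted p under 0.05, where 0% of the 10832 tested genes did, and 0 had an unadjusted p under 0.05, where 2.88% of tested genes did. Their smallest unadjusted p was 0.106, for Cebpa. In DESeq2, 0 of the 9 passed after adjustment, where 0.255% of genes with an adjusted p did, and 0 had an unadjusted p under 0.05, where 4.87% of genes did. Of the 9 log2 fold changes, 4 were above 0 and 5 below, with a median of -0.01. Across all tested genes 51.8% were above 0, with a median of 0.02. Levels of 1 of the 9, Cebpa, did not overlap between genotypes and were higher in Mll5+/-, against 9.32% of tested genes without overlap in either direction (4.68% higher and 4.64% lower).

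For 7 of the 9 genes the 95% interval of the log2 fold change lay inside -1 to 1, so that a change of 2-fold in either direction was outside it. Among all tested genes 19.5% had so narrow an interval. A p that misses the threshold does not by itself show equal levels, and these intervals give the sizes of change that the libraries leave possible. The standard error of the log2 fold change had a median of 0.250 over the 9 genes and of 0.629 over all tested genes. Genes of higher counts have smaller errors, and by mean level 8 of the 9 stood at or above the 80.0th percentile of tested genes, Cebpa being the other at 48.6.

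**Figure D1:**
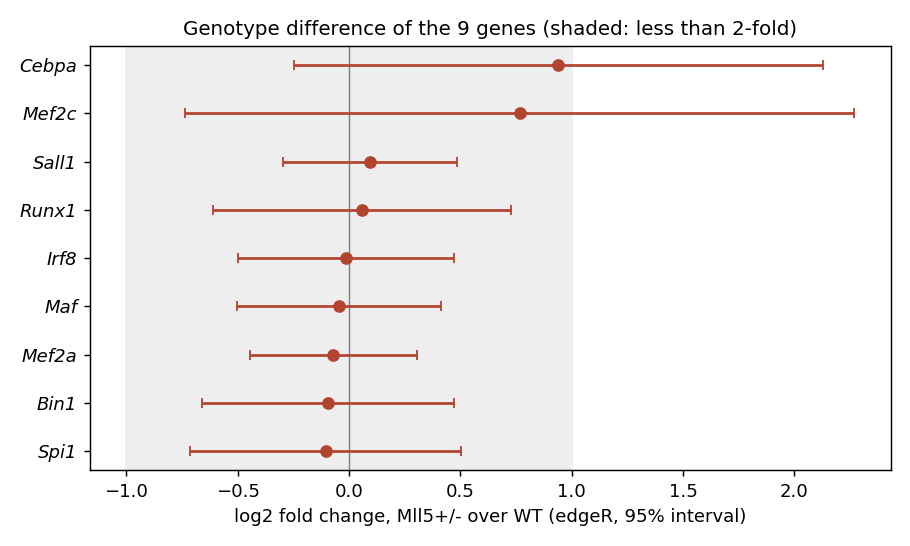
Log2 fold change of each of the 9 genes, Mll5+/- over WT, with its 95% interval from edgeR's quasi-likelihood fit (n = 3 libraries each). The shaded band marks changes of less than 2-fold, and the intervals of Cebpa and Mef2c are the 2 that reach beyond it.

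Depth was between 21075570 and 29730400 counts per library. Levels are given as CPM, the count divided by the scaled size of its library, and a count of 3 amounts to 0.104 CPM in the deepest library and 0.142 CPM in the shallowest. Kmt2e itself had 648, 298 and 513 CPM in Mll5+/- libraries and 480, 378 and 688 CPM in WT libraries, so its whole-gene count did not separate the genotypes (log2 fold change -0.08, 95% interval from -0.79 to 0.63). Genotypes are therefore named as the labels give them. The microglial markers Tmem119 (226 ± 5.56 CPM in Mll5+/- and 207 ± 12.1 CPM in WT, SD, n = 3 each), Cx3cr1 (1342 ± 129 and 1511 ± 209 CPM) and Csf1r (925 ± 66.5 and 935 ± 131 CPM) were abundant in all 6 libraries. Of the 12 microglial markers, 9 had log2 fold changes below 0 and 3 above, where 51.8% of all tested genes were above 0. The 12 summed to between 7581 and 8887 CPM in Mll5+/- libraries and between 10134 and 14322 CPM in WT libraries, without overlap. Much of that difference came from P2ry12, the most abundant of them, with a mean of 1145 CPM in Mll5+/- and 3712 CPM in WT libraries. P2ry12 (log2 fold change -1.70) and Gpr34 (-0.66) were lower without overlap, against 4.64% of all tested genes. Tmem119 (0.12) was higher without overlap, against 4.68% of all tested genes. The part of the microglial markers in the levels of the 9 genes was not tested. In bulk libraries, fewer cells of a type and less RNA per cell cannot be told apart.

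**Figure D2:**
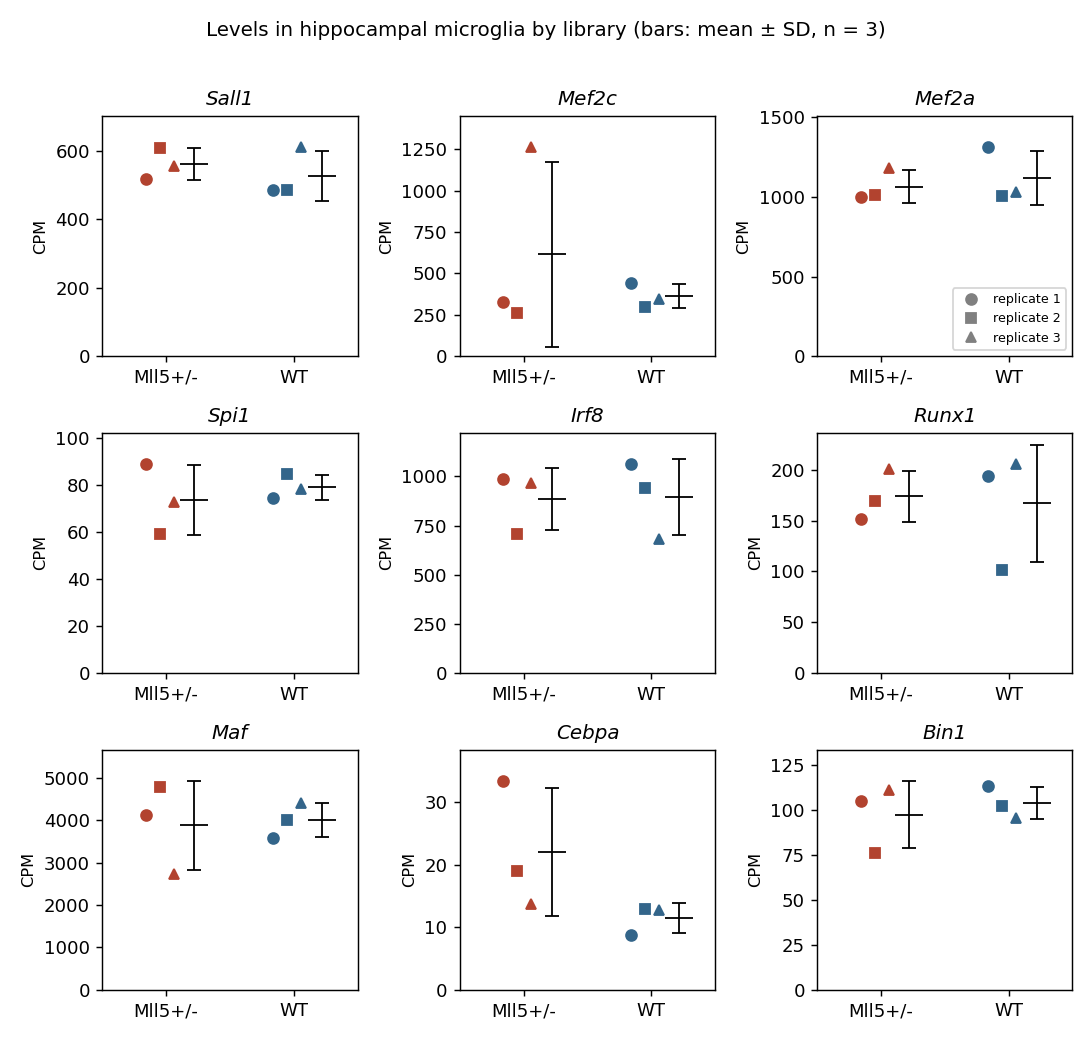
CPM of each gene in each library, with Mll5+/- on the left and WT on the right of every panel, and the mean ± SD (n = 3) beside the points. Single libraries stand out for Mef2c (Mll5+/- replicate 3, 1262 CPM) and Cebpa (Mll5+/- replicate 1, 33.4 CPM), and the other panels show overlapping groups.

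Between genes, levels can be compared only per length, so the CPM was divided by the length of the gene's merged exons in GENCODE vM21. Merging takes in the exons of all annotated isoforms, so this length can exceed that of the message present and lower the value. The order below depends on these lengths, such as 15.7 kb for Mef2c and 2.70 kb for Spi1. On this scale Maf was first with a mean of 478 CPM per kb over the 6 libraries (from 331 to 580), and its range met that of no other member. Irf8 (mean 126, from 96.4 to 151) and Sall1 (mean 103, from 92.1 to 116) followed with overlapping ranges, and Mef2a came next at a mean of 74.3 (from 68.0 to 89.3). Mef2c, Spi1 and Bin1 had means of 31.2, 28.3 and 24.4 CPM per kb, with ranges that overlapped. The range of Mef2c, from 16.6 to 80.3, also overlapped those of Mef2a above it and Runx1 below it, so its place in this order is not settled by these libraries. Runx1 had a mean of 14.2 (from 8.42 to 17.1), below the lowest library of Bin1 (18.5). Cebpa was last with a mean of 6.35 (from 3.31 to 12.7), overlapping Runx1. Spi1, which encodes the founding factor of the lineage, was thus at a lower message level per length than Irf8 in every library.

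Of the lineage-founding factors, Spi1 lies at chr2:90912735-90946101 (mm39). It had 88.8, 59.3 and 72.7 CPM in Mll5+/- libraries and 74.3, 84.7 and 78.1 CPM in WT libraries. The Mll5+/- values lay on both sides of the WT values. Its log2 fold change was -0.10 (SE 0.268, 95% interval from -0.71 to 0.51, edgeR unadjusted p = 0.709).

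Irf8 lies at chr8:121463097-121483433 and encodes the interferon regulatory factor that pairs with PU.1. Its levels were 989, 706 and 967 CPM in Mll5+/- libraries and 1062, 942 and 680.4 CPM in WT libraries. The genotypes overlapped, each with 1 library well below its other 2. Mll5+/- over WT came to a log2 fold change of -0.01 (SE 0.214, 95% interval from -0.50 to 0.47, edgeR unadjusted p = 0.955).

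Runx1, at chr16:92398354-92623037, encodes the core-binding factor of blood stem cells that is also active in young microglia. It had 152, 169 and 201 CPM in Mll5+/- libraries and 194, 101 and 206 CPM in WT libraries. WT replicate 2 was the lowest of the 6 and the other 5 ran from 152 to 206 CPM. For the genotypes this gave a log2 fold change of 0.06 (SE 0.295, 95% interval from -0.61 to 0.73, edgeR unadjusted p = 0.845), and -0.22 without WT replicate 2. Cbfb, which encodes the partner subunit of RUNX proteins on DNA, had 93.8, 105 and 29.0 CPM in Mll5+/- libraries and 95.99, 74.0 and 90.4 CPM in WT libraries, with overlap.

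Runx1 is transcribed from more than 1 promoter, which the count per gene does not tell apart. The upstream promoter in RefSeq (GRCm38.p6, chr16:92826025-92826324, minus strand) is printed because it holds letters that RUNX proteins themselves bind, here in capitals (ACCACA on the printed strand).
Runx1 upstream promoter: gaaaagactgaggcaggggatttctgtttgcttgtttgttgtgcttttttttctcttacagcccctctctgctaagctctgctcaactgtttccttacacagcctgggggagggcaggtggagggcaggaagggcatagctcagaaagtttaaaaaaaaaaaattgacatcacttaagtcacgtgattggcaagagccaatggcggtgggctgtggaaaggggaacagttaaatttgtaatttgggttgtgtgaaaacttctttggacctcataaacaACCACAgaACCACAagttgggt
The capitals mark 2 matches, at bases 29 to 34 and 37 to 42 after the start. The downstream Runx1 promoter of that table holds 0. Of 32851 mouse promoters of the same length (300 bases, 250 before and 50 after the start), 16.8% hold ACCACA or its reverse complement at least once. A match describes the sequence and does not show binding.

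Cebpa, at chr7:34818718-34821353, encodes C/EBP alpha, a basic leucine zipper factor of myeloid commitment. It had 33.4, 19.0 and 13.7 CPM in Mll5+/- libraries and 8.74, 12.9 and 12.7 CPM in WT libraries, from 846, 540 and 289 counts and from 209, 336 and 366 counts. All 3 Mll5+/- libraries were above all 3 WT libraries, but the lowest Mll5+/- library was only 1.06 times the highest WT library. The mean was 22.0 ± 10.2 CPM in Mll5+/- and 11.5 ± 2.36 CPM in WT (SD, n = 3 each). This came to a log2 fold change of 0.94 (SE 0.523, 95% interval from -0.25 to 2.13, edgeR unadjusted p = 0.106, adjusted p = 0.9995), which did not pass. Without Mll5+/- replicate 1, the highest library, it was 0.50 (unadjusted p = 0.427 in edgeR). Without Mll5+/- replicate 3 it was 1.18 (unadjusted p = 0.0482 in edgeR, adjusted p = 0.99994). No gene of the table overlaps Cebpa, and the nearest listed gene, Cebpg, had 309, 266 and 339 CPM in Mll5+/- libraries and 326, 355 and 359 CPM in WT libraries.

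Among the factors that mark the microglial state, Sall1 lies at chr8:89753863-89770790. It had 518, 610.2 and 558 CPM in Mll5+/- libraries and 485, 486 and 611 CPM in WT libraries. The highest libraries of the 2 genotypes were level with each other. Its log2 fold change was 0.09 (SE 0.172, 95% interval from -0.30 to 0.48, edgeR unadjusted p = 0.603), so the fold lay between 0.814 and 1.40. Sall1 and Mef2a had the smallest errors of the 9 genes, with 1.28% and 0.886% of tested genes having a smaller one.

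Mef2a, at chr7:66880911-67022606, encodes a MADS-box factor. It had 999, 1014 and 1182 CPM in Mll5+/- libraries and 1311, 1009 and 1034 CPM in WT libraries. The highest library of each genotype stood somewhat apart from the other 4, and the genotypes overlapped. Its log2 fold change was -0.07 (SE 0.165, 95% interval from -0.44 to 0.30, edgeR unadjusted p = 0.682).

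The promoter of Mef2a (RefSeq, GRCm38.p6, chr7:67372809-67373108, minus strand) is printed because it holds a consensus binding motif of the MEF2 family, here in capitals.
Mef2a promoter: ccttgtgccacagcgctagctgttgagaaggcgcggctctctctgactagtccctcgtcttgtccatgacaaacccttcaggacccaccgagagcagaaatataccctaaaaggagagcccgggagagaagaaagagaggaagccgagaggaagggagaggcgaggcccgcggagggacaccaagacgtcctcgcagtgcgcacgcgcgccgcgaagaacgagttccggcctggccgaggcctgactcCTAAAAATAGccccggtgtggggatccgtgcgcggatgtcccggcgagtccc
The letters in capitals were searched on both strands. They run from base -2 to base 8 around the start of the gene (no base is numbered 0), and 36 of the 32851 promoters, or 0.1096%, hold them. The same promoter holds GAGGAA, the core of PU.1 sites with a purine flank, at 2 places upstream, a motif found in 28.3% of promoters.

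Further letter patterns were looked up on both strands in the 12 promoters used here for 6 of the genes, Sall1, Mef2c, Mef2a, Irf8, Runx1 and Cebpa. The longer PU.1 pattern GAGGAAGT, which contains GAGGAA, the C/EBP pattern TTGCNNAA and the interferon-stimulated response pattern of IRF factors had 0 matches in the 12, against 3.20%, 10.8% and 3.44% of all promoters. GAGGAA was found in 4 of the 12 and the MAF half-site TGCTGA, present in 19.5% of all promoters, in 2 of the 12. The absence of a pattern says only that its letters are not in these 300 bases.

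Mef2c lies at chr13:83652153-83815199 and encodes the paralog of MEF2A that is also prominent in neurons. Its levels were 329, 261 and 1262 CPM in Mll5+/- libraries and 442, 299.5 and 347 CPM in WT libraries. Mll5+/- replicate 3 was 4.28 times the mean of the other 2 Mll5+/- libraries and 2.86 times the next highest of all 6, and without it the genotypes still overlap. The mean was 617 ± 559.6 CPM in Mll5+/- and 363 ± 72.5 CPM in WT (SD, n = 3 each). This came to a log2 fold change of 0.77 (SE 0.619, 95% interval from -0.74 to 2.27, edgeR unadjusted p = 0.260), and -0.31 without Mll5+/- replicate 3 (unadjusted p = 0.225 in edgeR). With sample weights in limma-voom it was 0.14. Such spread was common in these libraries: of the 9104 tested genes with a count in all 6 libraries, 34.0% had a larger ratio of highest to lowest library than the 4.84 of Mef2c.

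Values that differ in the same library are given beside it. The neuron markers Snap25 (32.2 CPM) and Sox11 (34.6 CPM) were also highest of the 6 libraries in Mll5+/- replicate 3, while the summed level of the 7 neuron markers in the table was 222 CPM there, within the 183 to 252 CPM of the other 5 libraries. Of those 222 CPM, 124 came from Rtn1, which ran from 124 to 182 CPM over the 6 libraries, so the sum mainly follows Rtn1. Of the neuron list, 11 of 18 markers, Rbfox3, Slc17a7 and Gad1 among them, have no row in the table. Summed border-associated macrophage markers were highest there too, with 695 CPM against 267 to 419.7 CPM in the other 5, mostly from Stab1 (489 CPM) and Mrc1 (189.6 CPM). Mef2d, another MEF2 gene, had 39.3, 22.3 and 66.9 CPM in Mll5+/- libraries and 41.6, 30.2 and 22.0 CPM in WT libraries, also highest in that library. The part of these in the Mef2c value was not tested. No listed gene overlaps Mef2c.

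**Figure D3:**
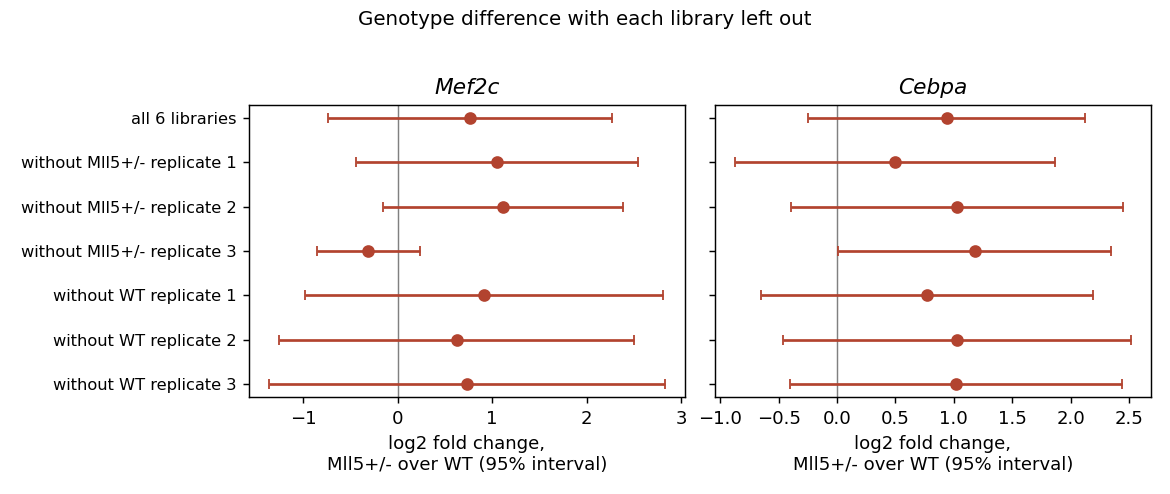
Log2 fold change of Mef2c and Cebpa, Mll5+/- over WT, with 95% intervals from edgeR, with all 6 libraries and with each left out. Mef2c moves to -0.31 without Mll5+/- replicate 3, and Cebpa runs from 0.50 without Mll5+/- replicate 1 to 1.18 without Mll5+/- replicate 3.

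Maf, at chr8:116409681-116434533, encodes c-MAF, a basic leucine zipper factor of macrophages. It had 4128, 4777 and 2732 CPM in Mll5+/- libraries and 3589, 4008 and 4396 CPM in WT libraries. The highest and the lowest of the 6 libraries were both Mll5+/-. The log2 fold change was -0.04 (SE 0.202, 95% interval from -0.50 to 0.41, edgeR unadjusted p = 0.834).

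Bin1, at chr18:32510283-32568790, had 105, 76.0 and 111 CPM in Mll5+/- libraries and 114, 102 and 95.6 CPM in WT libraries. Mll5+/- replicate 2 was the lowest and the other 5 libraries overlapped. The log2 fold change was -0.09 (SE 0.250, 95% interval from -0.66 to 0.47, edgeR unadjusted p = 0.717). Bin2, the family member typical of leukocytes, had 187, 126 and 49.6 CPM in Mll5+/- libraries and 186, 230.2 and 190.2 CPM in WT libraries. In edgeR this was a log2 fold change of -0.74 with an SE of 0.416 and did not pass.

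**Figure D4:**
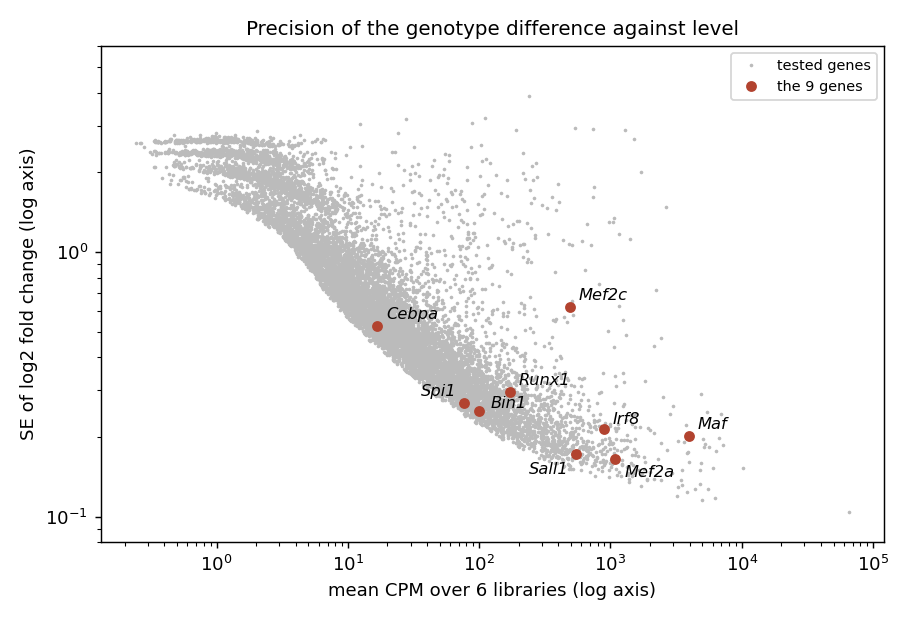
Standard error of the log2 fold change (Mll5+/- over WT) against mean CPM over the 6 libraries for all 10832 tested genes, on log axes, with the 9 genes in red. Most of the 9 lie along the lower edge of the cloud, and Mef2c lies above it at 0.619.

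Some library differences were shared by several of the genes and crossed the genotypes. The levels of Sall1 and Maf were highest in Mll5+/- replicate 2 (610.2 and 4777 CPM) and WT replicate 3 (611 and 4396 CPM). Irf8 was lowest in the same 2 libraries, at 706 and 680.4 CPM, against 942 to 1062 CPM in the other 4. These libraries were also the deepest, with 28053173 and 29730400 counts, and come from different genotypes. This grouping was chosen after the values were seen, and the part of depth in it was not tested. Mll5+/- replicate 2 was the lowest of the 6 libraries for 3 genes (Mef2c, Spi1 and Bin1).

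**Figure D5:**
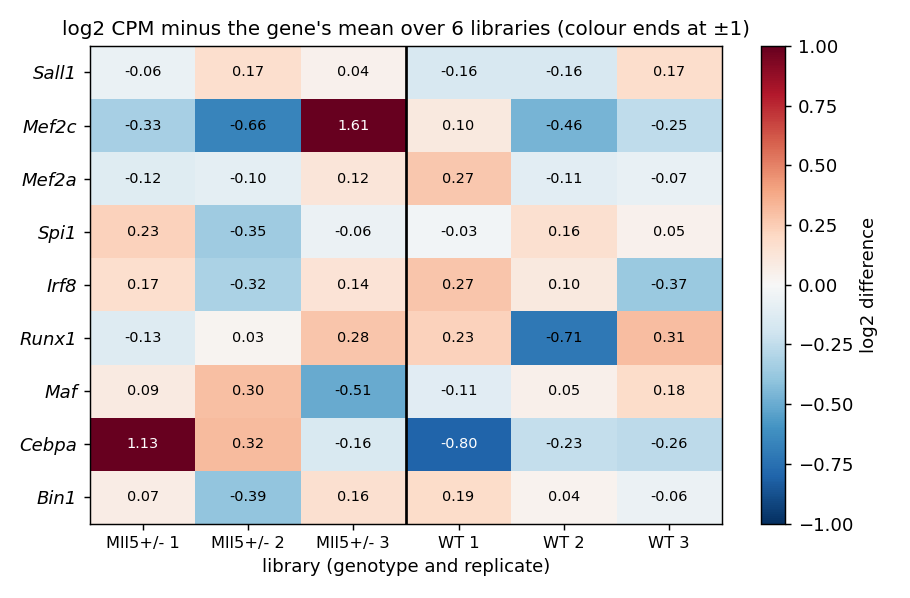
Log2 CPM of each gene in each library minus its mean over the 6 libraries, Mll5+/- libraries left of the line and WT libraries right of it. Columns Mll5+/- 2 and WT 3 share positive values for Sall1 (0.17 in both) and Maf (0.30 and 0.18) and negative values for Irf8 (-0.32 and -0.37).

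For the 9 genes, the tested gene of at least 10 CPM whose log2 CPM followed it most closely over the 6 libraries was looked up among 6834 candidates. Irf8 was closest to Atp6v0a1 (Pearson r = 0.994), Sall1 to Tpt1 (0.992), Maf to Tcaim (0.993), Spi1 to Ythdf3 (0.994), Bin1 to Ranbp3 (0.999), Mef2a to Mapk3 (0.983), Runx1 to Gm49391 (0.995) and Cebpa to Txnip (0.964). Each member had between 18 and 143 candidates with r above 0.9. With 6 libraries and 6834 candidates such values are a description of these libraries, which share depth and scaling, and none of the 9 genes was closest to another of the 9.

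The relatives and partners of the factors, a list of 31 genes, had 22 tested members, of which 11 had log2 fold changes above 0 (51.8% of all tested genes did) and 0 had an unadjusted p under 0.05 (2.88% of all tested genes did). Their median was -0.02, beside 0.02 for all tested genes. Sall2, a paralog of Sall1, had 5.37, 5.20 and 4.58 CPM in Mll5+/- libraries and 10.7, 6.39 and 12.98 CPM in WT libraries, and was the 1 gene of the list without overlap, against 9.32% of all tested genes (log2 fold change -0.99, SE 0.689). Irf1, an interferon-induced factor, had 38.7, 88.3 and 43.5 CPM in Mll5+/- libraries and 26.2, 42.5 and 58.5 CPM in WT libraries. Irf4 was near 0, with 0, 1.30 and 0 CPM in Mll5+/- libraries and 1.09, 5.31 and 3.16 CPM in WT libraries. A further 8 members, among them Spib, Mef2b and Cebpe, have no row in the table.

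Of 62 other transcription factors of macrophages and microglia, 50 were tested, with 23 above 0 and a median of -0.05. An unadjusted p under 0.05 was met by 0 higher and 2 lower genes, against 1.36% and 1.52% of all tested genes. Levels of 1 higher and 2 lower genes of the 50 did not overlap, against 4.68% and 4.64% of all tested genes. Elk3 was among those lower ones. Elk3, an ETS family repressor, had 84.0, 28.8 and 83.8 CPM in Mll5+/- libraries and 102, 141 and 133 CPM in WT libraries, without overlap (log2 fold change -0.94, SE 0.405, edgeR unadjusted p = 0.0468). Usf1, a basic helix-loop-helix factor, had 13.6, 7.65 and 2.88 CPM in Mll5+/- libraries and 5.31, 88.6 and 64.4 CPM in WT libraries (log2 fold change -2.71, SE 0.980, edgeR unadjusted p = 0.0246). Ets1 reached 490.2 CPM in Mll5+/- replicate 2 alone, against 11.6 and 0.378 CPM in the other Mll5+/- libraries and 3.85, 9.08 and 5.24 CPM in WT libraries. Myb, a factor of blood progenitors, had 2.68, 2.04 and 15.4 CPM in Mll5+/- libraries and 2.55, 0.539 and 1.32 CPM in WT libraries.

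Among 20 corepressors and cofactors, 19 were tested, with 10 above 0, a median of 0.00 and 0 with an unadjusted p under 0.05, against 2.88% of all tested genes. Levels of 2 of the 19, Mta1 and Smarca4, did not overlap and were higher in Mll5+/-, against 4.68% of all tested genes. Rbbp4, a histone-binding subunit of deacetylase complexes, had 108, 88.9 and 74.2 CPM in Mll5+/- libraries and 123, 141 and 108 CPM in WT libraries (log2 fold change -0.45, SE 0.250, edgeR unadjusted p = 0.105). Hdac2 had 40.6, 40.9 and 13.3 CPM in Mll5+/- libraries and 43.9, 40.5 and 33.6 CPM in WT libraries. Mta2 of the same complexes had 146, 108 and 209 CPM in Mll5+/- libraries and 81.3, 164 and 115 CPM in WT libraries. Mta1 was at 4.06, 3.79 and 2.74 CPM in Mll5+/- libraries and 0, 1.12 and 1.56 CPM in WT libraries. Smarca4, a remodelling ATPase named after its values were seen, had 96.7, 99.5 and 109 CPM in Mll5+/- libraries and 84.2, 88.2 and 93.8 CPM in WT libraries (log2 fold change 0.20, SE 0.226).

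Genes known to depend on these factors were set beside them. Of 17 genes that PU.1 binds and activates in macrophages, 10 had log2 fold changes above 0, with a median of 0.05 and 0 with an unadjusted p under 0.05. Of all tested genes 51.8% were above 0 and 2.88% had such a p. Lyz2 was the 1 gene of the list without overlap, against 9.32% of all tested genes. Tyrobp, the signalling adaptor of TREM2, had 192, 205 and 286 CPM in Mll5+/- libraries and 91.1, 158 and 214 CPM in WT libraries. Lyz2, lysozyme, had 15.5, 10.1 and 19.0 CPM in Mll5+/- libraries and 7.57, 9.20 and 8.85 CPM in WT libraries (log2 fold change 0.80, SE 0.551). Fcgr3, an Fc receptor, had 249.6, 205 and 186 CPM in Mll5+/- libraries and 204, 276 and 292 CPM in WT libraries. Msr1, a scavenger receptor, was listed at 1.30, 6.25 and 0.425 CPM in Mll5+/- libraries and 7.57, 0 and 20.1 CPM in WT libraries.

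Of 10 genes that depend on IRF8, 5 were above 0, with a median of 0.07 that the size of the Il1b fold does not enter, and 1 higher and 1 lower gene had an unadjusted p under 0.05, against 1.36% and 1.52% of all tested genes. Levels of 2 higher genes (Il1b and Tlr2) and 1 lower gene (P2ry12) did not overlap, against 9.32% of all tested genes. The higher gene with such a p, Il1b, had 17, 61 and 20 counts in Mll5+/- libraries and 0 in each WT library. Il1b thus passed the filter on low counts only through the Mll5+/- libraries. That fixed its direction and its lack of overlap in advance, so Il1b adds nothing to the counts above. Tlr2 had 14.1, 11.8 and 21.6 CPM in Mll5+/- libraries and 6.23, 8.20 and 2.15 CPM in WT libraries, without overlap (log2 fold change 1.52, SE 0.689, edgeR unadjusted p = 0.0557). Cst3, cystatin C, had 5123, 5054 and 3830.2 CPM in Mll5+/- libraries and 4600.2, 5895 and 7241 CPM in WT libraries. Irf5, which IRF8 induces in reactive microglia, had 69.5, 56.5 and 56.5 CPM in Mll5+/- libraries and 59.2, 73.0 and 59.5 CPM in WT libraries. The lower gene with such a p, P2ry12, belongs to the next list as well.

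Of 12 genes that fall in microglia without Sall1, 11 had log2 fold changes below 0, where 51.8% of all tested genes were above 0. Sall1 itself had a log2 fold change of 0.09. Their median was -0.30, beside 0.02 for all tested genes, and 0 higher and 3 lower genes had an unadjusted p under 0.05, against 1.52% of all tested genes on the lower side. The 3 were Gpr34, P2ry12 and Sparc, a set already known to be among the lower genes of these libraries, so the count is no independent evidence. The same 3 were lower without overlap, against 4.64% of all tested genes, which is likewise no independent evidence. Tmem119 was higher without overlap, against 4.68% of all tested genes. Gpr34, a lysophospholipid receptor, had 897, 793 and 585 CPM in Mll5+/- libraries and 1083, 1241 and 1267 CPM in WT libraries (log2 fold change -0.66, SE 0.189, edgeR unadjusted p = 0.00711). P2ry12, a purinergic receptor, had 1115, 1232 and 1087 CPM in Mll5+/- libraries and 4269, 1366 and 5499 CPM in WT libraries, without overlap, although WT replicate 2 lay close to the Mll5+/- libraries. It passed in DESeq2 (adjusted p = 0.0343) but not in edgeR (log2 fold change -1.70, SE 0.474, adjusted p = 0.9995). Sparc, a matrix glycoprotein, had 10103, 6920 and 8394 CPM in Mll5+/- libraries and 12187, 12745 and 10666 CPM in WT libraries (log2 fold change -0.49, SE 0.153). Tmem119 was the 1 gene of the list above 0, with a log2 fold change of 0.12 (SE 0.181).

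The list of BIN and amphiphysin relatives with their endocytic partners had 15 of 18 genes tested, with 8 above 0 and a median of 0.15. Unadjusted p-values under 0.05 were met by 2 higher and 0 lower genes, against 1.36% and 1.52% of all tested genes, and the same 2 were the ones without overlap, against 9.32% of all tested genes. Clta, a clathrin light chain, had 509, 534 and 716 CPM in Mll5+/- libraries and 335, 389 and 468 CPM in WT libraries (log2 fold change 0.56, SE 0.207, edgeR unadjusted p = 0.0241). Snx4, a sorting nexin that binds amphiphysins, had 23.7, 40.8 and 48.5 CPM in Mll5+/- libraries and 18.8, 21.8 and 18.4 CPM in WT libraries (log2 fold change 0.94, SE 0.406, edgeR unadjusted p = 0.0471). Neither passed when adjusted over all genes. Bin3 had 11.4, 6.39 and 4.73 CPM in Mll5+/- libraries and 13.8, 23.2 and 7.18 CPM in WT libraries.

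Several of the 9 genes are also active in other cells, Mef2c in neurons, Bin1 in oligodendrocytes and neurons and Maf in border-associated macrophages, so summed marker levels were compared. Border-associated macrophage markers summed to between 369 and 695 CPM in Mll5+/- and between 267 and 328 CPM in WT, mostly from Stab1 and Mrc1. Of their 6 tested members, 6 were above 0, where 51.8% of all tested genes were. An edgeR unadjusted p under 0.05 was met by 0 of the 6, against 2.88% of all tested genes. Levels of 0 of the 6 were without overlap, against 9.32%. Pf4, Cbr2, Siglec1 and Clec10a have no row in the table. Astrocyte markers summed to between 269 and 559 CPM in Mll5+/- and between 400.3 and 575 CPM in WT. Of 9 tested, 4 were above 0 and 5 below, and the most abundant, Slc1a3, overlapped. Gja1 and Plpp3 were lower without overlap, against 4.64% of all tested genes. Both had a low unadjusted p in edgeR (0.00250 and 0.0131), where 1.52% of all tested genes were lower with a p under 0.05. Gja1 passed in DESeq2 (adjusted p = 0.0343) but not in edgeR. Neuron markers summed to between 183 and 222 CPM in Mll5+/- and between 191 and 252 CPM in WT, mostly from Rtn1. Oligodendrocyte and progenitor markers summed to between 99.9 and 137 CPM in Mll5+/- and between 155 and 186 CPM in WT, with Sox10, Olig1 and Olig2 among the 7 markers without a row.

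The remaining marker lists were low or rested on genes that microglia share. Monocyte and neutrophil markers summed to between 226 and 284 CPM in Mll5+/- and between 196 and 258 CPM in WT, mostly Csf3r, and Ly6c2 and Ly6g have no row. Lymphocyte markers summed to between 138 and 215 CPM in Mll5+/- and between 172 and 239 CPM in WT, nearly all from Il7r, and Cd3e has no row. Endothelial and mural markers summed to between 16.96 and 23.3 CPM in Mll5+/- and between 14.3 and 30.9 CPM in WT. Flt1 of this list had 0 counts in each Mll5+/- library and 0, 101 and 457 counts in WT libraries. It passed in DESeq2 (adjusted p = 0.0350), where 0.255% of genes with an adjusted p did. In edgeR it was not tested, as it did not pass the filter on low counts. The 1 listed erythrocyte or platelet marker, Gp9, stayed between 0 and 0.211 CPM in Mll5+/- and between 0.139 and 1.67 CPM in WT. The part of these other cells in the levels of the 9 genes was not tested.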

How the data were processed

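Gene expression was measured by RNA-seq in 6 libraries of sorted hippocampal microglia, 3 labelled Mll5+/- and 3 labelled WT. TRIzol extraction, SMART-seq amplification and a TruePrep library kit were used, per the labels' protocols. The authors deposited whole-number counts per gene symbol with gene coordinates. The submitters' processing notes name mm39 as the build and FastQC, STAR, StringTie and DESeq2 as tools. How reads were counted, with which annotation and whether by strand, was not stated, so shared reads of overlapping genes or paralogs stay unresolved.

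Groups came from the labelled genotype, and replicates were numbered in sample order. Each sample carries its own number in the labels and the design text gives 3 mice per genotype, so each library was taken as 1 mouse. Genes were kept by filterByExpr (minimum count 10, minimum total 15), leaving 10832 of 11881, scaled by TMM and compared by the two-sided quasi-likelihood F-test of edgeR 4.0.16 (robust fit, under R 4.3.3 with limma 3.58.1), Mll5+/- minus WT, with Benjamini-Hochberg adjustment over all tested genes and a threshold of 0.05. CPM uses the TMM-scaled sizes. Each SE was derived from the fold change and its test statistic, and gave the 95% interval. The biological coefficient of variation was 80.4%. The fit was tested on simulated data with known folds, where recovery was required only at a spread far below the measured one. Recovery at the spread of these libraries is not given here. Alternatives were DESeq2 1.42.0, limma-voom, other scalings and filters, and each library left out.

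The 9 genes, the gene lists and the tests were chosen with earlier results of these data known. All 9 genes were named, per list the 2 genes of smallest p in each direction, the gene most alike each of the 9 (mean CPM of at least 10; that of Mef2c is not reported here), and Kmt2e, Tmem119, Cx3cr1 and Csf1r as checks. Cbfb, Irf5, Cebpg, Sparc, Smarca4 and Flt1 fall outside this rule and were chosen after their values were seen. The lists come from general knowledge. Exon lengths are from GENCODE vM21 and promoters from RefSeq, both on GRCm38, not the build of the counts, and were used for length and sequence only. Floors cover counting error only, since the reads carry no stated molecular identifiers.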

Additional observations from a re-analysis of the deposited data

How the results depend on the processing

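Of 63 log2 fold changes of the 9 genes under other scalings, filters and tests, 0 passed and 2 had the other sign, Irf8 with total counts without scaling (0.0066) and Maf in limma-voom (0.043). Of 54 with a library left out, 0 passed after adjustment and 11 had the other sign. Over the left-out libraries, Bin1 ran from -0.21 to 0.041, Irf8 from -0.18 to 0.12, Maf from -0.23 to 0.14, Mef2a from -0.16 to 0.047, Mef2c from -0.31 to 1.11, Runx1 from -0.22 to 0.23, Spi1 from -0.28 to 0.017, Sall1 from 0.01 to 0.21 and Cebpa from 0.50 to 1.18. The number of the 9 genes above 0 ran from 3 to 7 (7 without Mll5+/- replicate 2), those without overlap from 1 to 2, and those with an unadjusted p under 0.05 from 0 to 1 (Cebpa without Mll5+/- replicate 3).

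Across all genes, 0 passed in edgeR, and DESeq2, run on all listed genes, called 29. With a library left out, edgeR called between 0 and 2. The count under an unadjusted p of 0.05 was 312, against 565 in DESeq2 and 497 without the low-count filter, and from 309 to 500 with a library left out. The cause of these differences was not tested. No paired analysis was possible because the labels give each sample a number of its own and the replicate numbers used here only follow sample order. With 3 libraries per genotype the intervals of Cebpa and Mef2c include changes of more than 2-fold.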
